A study of Mus musculus with 9 samples.

Results

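The classical cadherins are described here across sorted cell populations of newborn mouse dermis. The group comprised the 10 genes Cdh1, Cdh2, Cdh3, Cdh4, Cdh5, Cdh6, Cdh11, Cdh13, Cdh15 and Cdh19, each taken from the deposited gene row that carries its symbol, out of 84809 rows. All 10 passed the filter on low values (at least 1 FPKM in at least 3 libraries), as did 20523 rows in all. RNA sequencing had been done on 9 libraries from dermal mesenchymal cells, sorted by their level of the surface integrin α6 (CD49f) into the gates CD49f-neg, CD49f-low and CD49f-high with 3 libraries each. All 3 gates share the genotype Krt14 cre;Rosa26-mTmG, in which a Cre recombinase under the keratin 14 promoter, active in keratinocytes, switches a membrane fluorescent reporter. The cells were primary, taken straight from the skin of newborn pups and put into Trizol without culture. The labels give no treatment and do not say whether the 3 libraries of a gate came from separate animals, so the p-values below measure the spread between these libraries, which may be technical.

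Classical cadherins are calcium-dependent adhesion proteins of the adherens junction. Their outer repeats bind cadherins on the neighbouring cell, and their cytoplasmic tail binds β-catenin or plakoglobin and p120 catenin, which link it through α-catenin to actin. Cells that carry the same cadherin tend to sort together, and different skin cell types carry different members. Cdh1 (E-cadherin), Cdh2 (N-cadherin), Cdh3 (P-cadherin), Cdh4 (R-cadherin) and Cdh15 (M-cadherin) are counted here as type I, and Cdh5 (VE-cadherin), Cdh6 (K-cadherin), Cdh11 (OB-cadherin) and Cdh19 as type II. Cdh13 (T-cadherin) has cadherin repeats but is held by a lipid anchor and lacks the cytoplasmic tail, so it is a classical cadherin only in the wide sense.

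The His-Ala-Val tripeptide of the first repeat is a known signature of type I adhesion, and it separates the members by coding sequence. It was searched in frame on the coding strand as CACGCNGTN or CATGCNGTN in the GENCODE M21 transcripts. Cdh1, Cdh2, Cdh3 and Cdh4 each held it once, and the other 6 members did not hold these letters, Cdh15 among them. Of 21758 coding genes, 1097 (5.04%) held it. The stretches of Cdh1, Cdh3 and Cdh4 are printed 5′ to 3′, with the tripeptide's codons in capitals, to show how its codons and flanks differ between Cdh1 and Cdh3, the pair that was highest in the low gate, and Cdh4, which was not. Codons are counted from the start codon, and each stretch runs over an exon boundary, so the genomic span includes an intron.
Cdh1, codon 235, chr8:106653914-106656856, plus strand, GRCm38: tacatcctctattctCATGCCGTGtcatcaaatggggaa
Cdh3, codon 178, chr8:106536966-106537106, plus strand, GRCm38: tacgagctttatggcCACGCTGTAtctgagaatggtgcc
Cdh4, codon 245, chr2:179843119-179847252, plus strand, GRCm38: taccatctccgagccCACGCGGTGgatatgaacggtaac

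Values are FPKM, fragments per length of transcript and per library size, and so can be set side by side between genes. Library sums of FPKM lay between 423745 and 543842, with 47.5% to 61.3% of each in its top 10 rows. Depth relative to CD49f-neg replicate 1 was 0.947 to 1.09, and the absolute depth is not known. The labelled mesenchymal identity was checked with 9 fibroblast markers, whose summed FPKM was 14140 to 17190 in the CD49f-neg, 5722 to 6965 in the CD49f-low and 4153 to 6196 in the CD49f-high libraries. Markers of other skin cell types were present in the positive gates and are given beside each cadherin, while 6 immune cell markers summed to at most 3.92 FPKM in any library. Because the samples are bulk, fewer cells of a type and less RNA per cell cannot be told apart.

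Each gate held its own make-up of cadherin transcripts. In CD49f-neg cells Cdh11 (39.9% ± 9.88) and Cdh6 (38.3% ± 6.37) led the summed FPKM of the 10 genes, followed by Cdh4 (16.5% ± 4.43; SD, n = 3 in each case). In CD49f-low cells Cdh1 led with 34.4% ± 2.41, followed by Cdh11 (20.1% ± 4.42) and Cdh3 (18.9% ± 2.96). CD49f-high cells were led by Cdh6 at 27.95% ± 4.25, with Cdh11 at 12.7% ± 1.56, Cdh19 at 11.7% ± 6.003 and Cdh5 at 11.7% ± 3.27. The 5 type I genes held 18.9% ± 4.24 of the sum in the CD49f-neg, 65.0% ± 4.43 in the CD49f-low and 29.9% ± 10.1 in the CD49f-high libraries. The 4 type II genes held 78.5% ± 4.72, 27.8% ± 5.94 and 64.1% ± 10.5 in the same order of gates. The sum itself was 29.9 ± 4.78 FPKM in the CD49f-neg, 54.1 ± 4.42 in the CD49f-low and 45.6 ± 9.78 in the CD49f-high libraries. Members at 1 FPKM or more in all 3 libraries of a gate numbered 3 in the CD49f-neg, 7 in the CD49f-low and 8 in the CD49f-high gate.

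**Figure D1:**
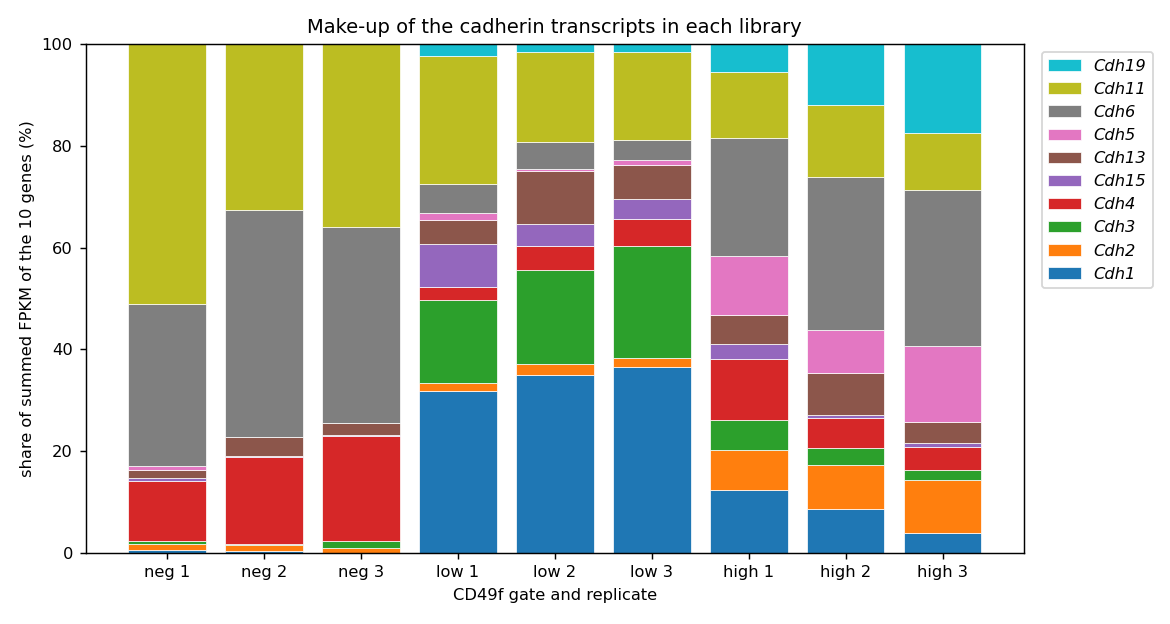
Share of each cadherin in the summed FPKM of the 10 genes (percent, vertical axis) for each library, by CD49f gate and replicate. Cdh11, Cdh6 and Cdh4 fill most of the CD49f-neg bars, Cdh1, Cdh11 and Cdh3 most of the CD49f-low bars, and Cdh6 is the largest segment of the CD49f-high bars, where the Cdh19 segment is smallest in replicate 1.

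The 3 gate comparisons were fitted in 1 limma model on log2(FPKM + 1), which understates the change of low genes, with p-values adjusted by Benjamini-Hochberg over all rows tested. Calls were made where that adjusted p was under 0.05. Without the gate where each was highest, Cdh2, Cdh3, Cdh5, Cdh15 and Cdh19 would have missed the filter. Their p-values for that gate therefore only describe the values. Between CD49f-low and CD49f-neg, 4 members rose (Cdh1, Cdh3, Cdh13 and Cdh15), 1 fell (Cdh6) and 5 were not called, where 12.8% of all rows tested rose and 2.62% fell (15.4% in either direction). Between CD49f-high and CD49f-neg, 6 rose (Cdh1, Cdh2, Cdh3, Cdh5, Cdh13 and Cdh19), 1 fell (Cdh11) and 3 were not called, where 13.9% of all rows rose and 8.27% fell (22.1% in either direction). Between CD49f-high and CD49f-low, 4 were higher (Cdh2, Cdh5, Cdh6 and Cdh19), 4 were lower (Cdh1, Cdh3, Cdh11 and Cdh15) and 2 were not called, where 5.93% of all rows were higher and 10.5% lower (16.4% in either direction). The members' median log2 fold changes were 0.78, 1.05 and -0.01 in these comparisons, and those of all rows tested were 0.21, 0.07 and -0.15. Counted by libraries that did not overlap between the gates, CD49f-low stood above CD49f-neg for 7 members (34.8% of all rows) and below it for 1 (5.77%). CD49f-high stood above CD49f-neg for 7 members (22.5% of all rows) and below it for 1 (13.9%). CD49f-high stood above CD49f-low for 4 members (10.3% of all rows) and below it for 4 (27% of all rows). The comparisons share libraries in pairs, so they are not independent of each other. The split of all rows depended on scaling. Between CD49f-low and CD49f-neg it was 2623 higher and 537 lower as deposited, but 1033 and 1231 after median-of-ratios scaling and 1040 and 1004 after quantile normalization. Between CD49f-high and CD49f-neg it was 2844 and 1697 as deposited, 2414 and 2270 after median-of-ratios scaling and 2186 and 2315 after quantile normalization. Between CD49f-high and CD49f-low it was 1216 and 2151 as deposited, 1684 and 1238 after median-of-ratios scaling and 1577 and 1431 after quantile normalization. No cadherin changed direction under either scaling.

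**Figure D2:**
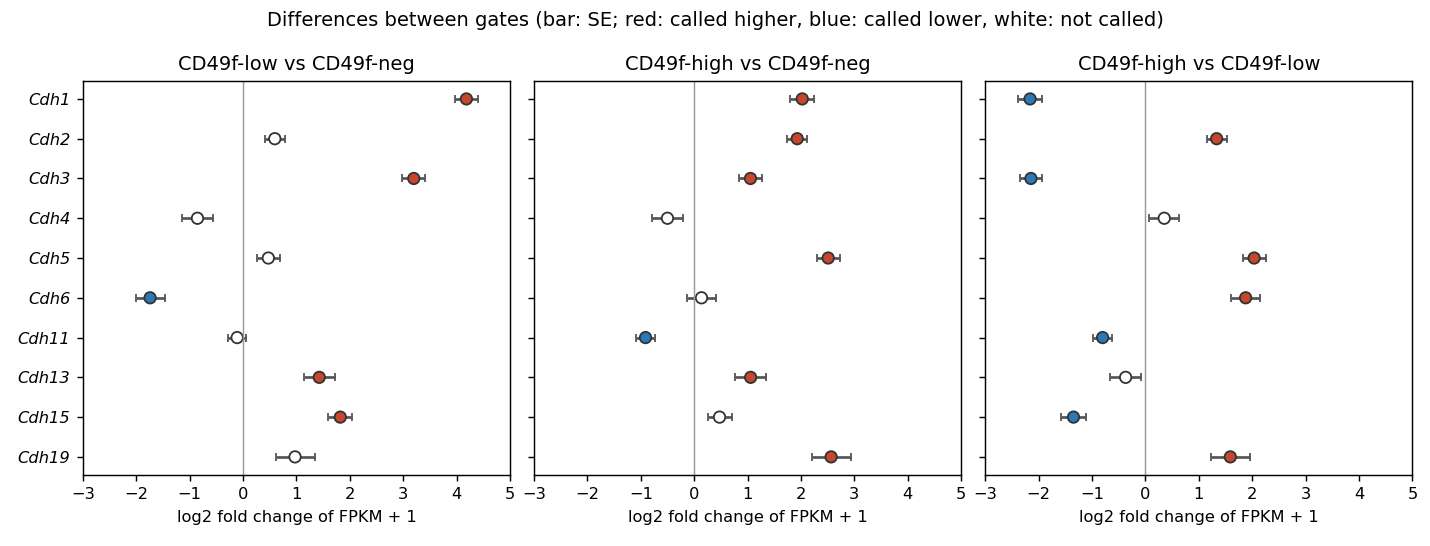
Log2 fold change of FPKM + 1 for each cadherin in each gate comparison, with its standard error as a bar. Filled points were called (red higher, blue lower) and white points were not. Cdh1, Cdh3 and Cdh15 lie right of 0 in the CD49f-low vs CD49f-neg panel and left of it in the CD49f-high vs CD49f-low panel, and Cdh5, Cdh19, Cdh2 and Cdh6 lie right of 0 in that last panel.

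Cdh1 and Cdh3, the cadherins of epithelia, peaked in the low gate. E-cadherin is the main cadherin of keratinocytes and also joins melanocytes to them, and P-cadherin is found in basal keratinocytes, hair follicles and melanocytes. Cdh1 (GRCm38 chromosome 8, 106603351 to 106670246, plus strand) had 0.126, 0.0962 and 0.0160 FPKM in the CD49f-neg, 16.3, 18.04 and 21.7 in the CD49f-low and 4.23, 4.43 and 1.96 in the CD49f-high libraries. The gates did not overlap, and every CD49f-low library stood above every other. Its log2 fold change was 4.18 (SE 0.22, adjusted p = 9.74e-06) for CD49f-low vs CD49f-neg, 2.02 (SE 0.22, adjusted p = 0.000176) for CD49f-high vs CD49f-neg and -2.16 (SE 0.22, adjusted p = 0.000210) for CD49f-high vs CD49f-low. Cdh3 lies upstream on the same strand (chromosome 8, 106510913 to 106556908), with 46442 bases between the annotated genes. It had 0.150, 0.0819 and 0.448 FPKM in the CD49f-neg, 8.30, 9.61 and 13.1 in the CD49f-low and 2.07, 1.68 and 0.953 in the CD49f-high libraries. Its gates did not overlap either, and the order of the gates was the same as for Cdh1. The log2 fold change of Cdh3 was 3.20 (SE 0.21, adjusted p = 2.10e-05) for CD49f-low vs CD49f-neg, 1.05 (SE 0.21, adjusted p = 0.00596) for CD49f-high vs CD49f-neg and -2.14 (SE 0.21, adjusted p = 0.000173) for CD49f-high vs CD49f-low.

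Marker lists of 3 cell types were set beside this pair. The 10 melanocyte markers summed to 2.63 to 4.06 FPKM in the CD49f-neg, where Gpr143 was at 0, to 431 to 529 in the CD49f-low and to 8.94 to 17.7 in the CD49f-high libraries. The 10 dermal papilla markers summed to 107 to 144, 251 to 289 and 41.0 to 60.8 FPKM in the same order of gates, so their sum, unlike Cdh1 and Cdh3, was lower in CD49f-high than in CD49f-neg. Of these 10, 8 rose in CD49f-low vs CD49f-neg (12.8% of all rows). In CD49f-high vs CD49f-neg 5 rose (13.9% of all rows) and 4 fell, Wif1, Rspo3, Crabp1 and Trps1 (8.27%). All 10 were lower in CD49f-high vs CD49f-low (10.5% of all rows). Corin, a dermal papilla protease, had 12.5, 20.95 and 19.4 FPKM in CD49f-low against 0.296, 0.404 and 0.418 in CD49f-neg. Wif1, a secreted Wnt inhibitor and the largest contributor in CD49f-neg, averaged 66.3 FPKM in the CD49f-neg, 54.8 in the CD49f-low and 9.57 in the CD49f-high libraries, and Trps1, in a row of 2 symbols, averaged 17.8, 16.6 and 2.35. The ratio of the mean FPKM between CD49f-high and CD49f-low was 0.190 for Cdh1 and 0.152 for Cdh3, beside 0.0221 for Pmel and 0.0205 for Dct (melanin synthesis and its organelle) and 0.119 for Corin and 0.176 for Notum, a secreted Wnt antagonist. Keratinocyte markers ran the other way between the positive gates: all 12 genes were found, in 10 rows, which summed to 27.8 to 61.1 FPKM in CD49f-high and 10.8 to 19.8 in CD49f-low libraries, with 3.75 to 4.57 in CD49f-neg. The row that holds Krt5 and the row that holds Krt14 each cover several keratin genes, so their FPKM cannot be given to 1 keratin. Within the high gate, replicate 3 was the lowest for Cdh1, Cdh3, Pmel, Dct, Corin, Notum and the keratinocyte sum alike. The part of each cell type in the levels of Cdh1 and Cdh3 was not tested.

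**Figure D3:**
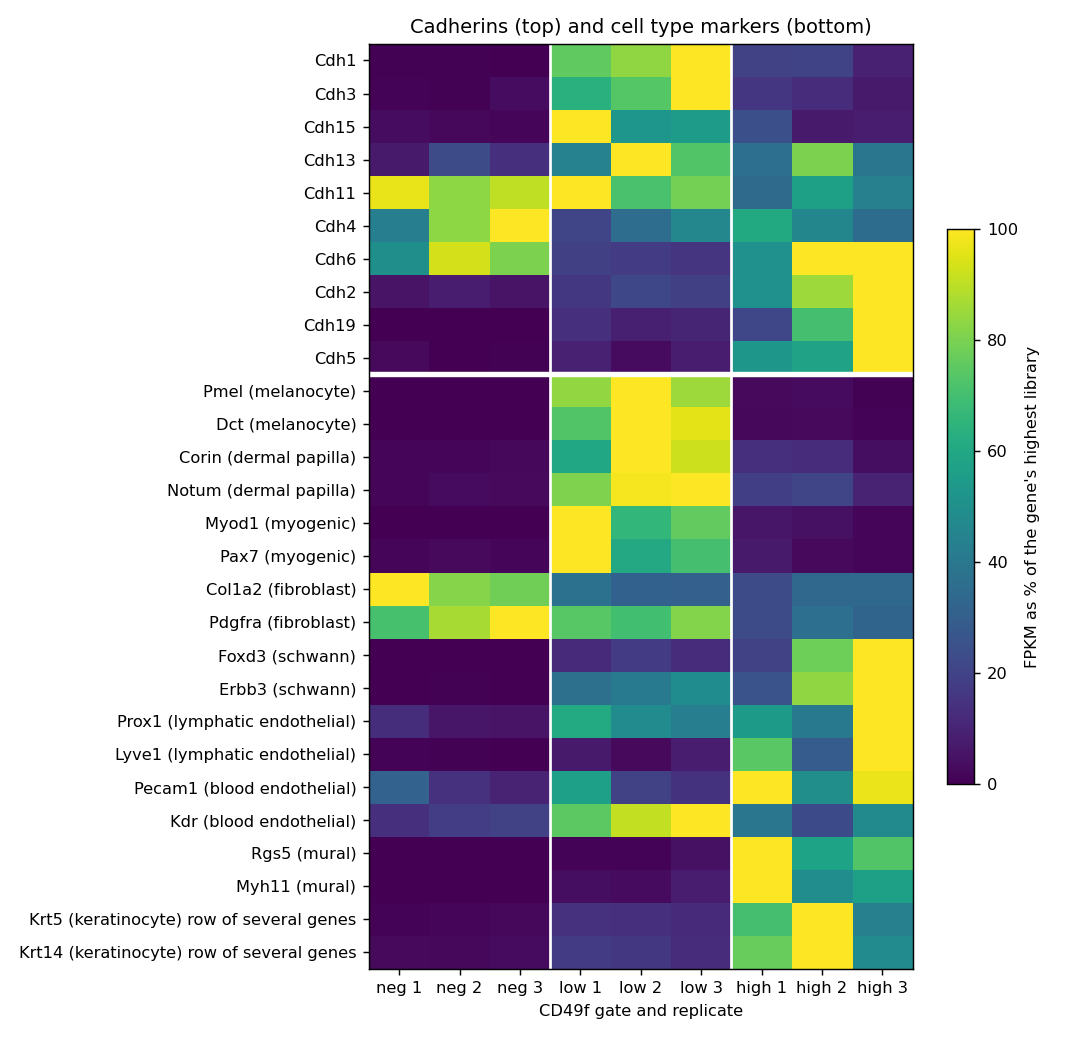
FPKM of each cadherin (top) and of the first 2 reported genes of each marker list other than immune cells (bottom), as a percent of the gene's highest library, with the 9 libraries in columns by gate and replicate. Cdh1, Cdh3 and Cdh15 are brightest in the CD49f-low columns with the melanocyte, dermal papilla and myogenic genes. Cdh2, Cdh19 and Cdh5 are brightest in the CD49f-high columns with Foxd3, Lyve1, Rgs5, Myh11 and the Krt5 and Krt14 rows. Erbb3, Prox1 and Pecam1 overlap between the CD49f-low and CD49f-high columns, and Kdr is brightest in CD49f-low.

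Cdh15, the cadherin of muscle satellite cells and myoblasts, was also highest in the low gate. Cdh15 (chromosome 8, 122848374 to 122867397, plus strand) had 0.136, 0.0976 and 0.0742 FPKM in the CD49f-neg, 4.31, 2.27 and 2.39 in the CD49f-low and 1.05, 0.307 and 0.341 in the CD49f-high libraries. The 3 gates did not overlap, and replicate 1 was the highest library in each. Cdh15 had a log2 fold change of 1.82 (SE 0.23, adjusted p = 0.000694) for CD49f-low vs CD49f-neg and -1.35 (SE 0.23, adjusted p = 0.00316) for CD49f-high vs CD49f-low. For CD49f-high vs CD49f-neg it was 0.47 (SE 0.23, adjusted p = 0.174), not called, although with the replicate block the adjusted p was 0.0469 and with a pseudocount of 0.1 it was 0.0311. Of 10 myogenic markers 9 were found, and they summed to 1.44 to 2.12 FPKM in the CD49f-neg, 18.1 to 24.6 in the CD49f-low and 7.24 to 11.4 in the CD49f-high libraries. Myod1, a master regulator of myogenesis, was at 0 in all CD49f-neg libraries, had 3.09, 2.05 and 2.34 FPKM in the CD49f-low and 0.182, 0.143 and 0.0422 in the CD49f-high libraries. Myf5 was at 0 in all CD49f-neg libraries too, and Pax7, a satellite cell factor, had 1.51, 0.908 and 1.06 FPKM in CD49f-low against 0.0204, 0.0359 and 0.0250 in CD49f-neg. Megf10, a receptor of satellite cells and of glia, went another way and made up most of the sum in CD49f-high replicates 2 and 3, with 5.48, 4.83 and 4.99 FPKM in CD49f-low and 2.23, 7.92 and 9.15 in CD49f-high. Replicate 1 was the highest library for Cdh15, Myod1 and Pax7 in the low gate and in the high gate. In the high gate Myf5, Myog, Ttn, Acta1 and Ckm were also highest in replicate 1. Chrna1 was highest there in replicate 2 and Megf10 in replicate 3. The myogenic sum of the high gate, which Megf10 dominated in replicates 2 and 3, was lowest in replicate 1. The part of myogenic cells in the level of Cdh15 was not tested.

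Cdh2, Cdh19 and Cdh5 were highest in the high gate. Cdh19 is a cadherin of Schwann cell precursors and glia of the neural crest lineage in rodents, N-cadherin joins neural, glial, muscle and mural cells, and VE-cadherin is the cadherin of blood and lymphatic endothelium. Cdh19 (chromosome 1, 110888326 to 110977584, minus strand) was listed at 0, 0.00947 and 0 FPKM in the CD49f-neg, and had 1.24, 0.770 and 0.931 in the CD49f-low and 1.91, 6.25 and 8.88 in the CD49f-high libraries. Its gates did not overlap, but the high gate spread widely, with replicate 1 close to the low gate. Cdh19 had a log2 fold change of 2.56 (SE 0.37, adjusted p = 0.000860) for CD49f-high vs CD49f-neg and 1.59 (SE 0.37, adjusted p = 0.0159) for CD49f-high vs CD49f-low. Without CD49f-low replicate 2, CD49f-low replicate 3 or CD49f-high replicate 2 the second of these was no longer called, with adjusted p values of 0.0545, 0.0529 and 0.0546. For CD49f-low vs CD49f-neg, Cdh19 had a log2 fold change of 0.97 (SE 0.37, adjusted p = 0.0994), not called. There the adjusted p was 0.00205 with a pseudocount of 0.1, 0.00228 in a fit on those 6 libraries only and 0.00350 without CD49f-high replicate 1.

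Cdh2 shared a row with 2 unnamed annotated loci on chromosome 18, so part of its FPKM may come from them. It had 0.287, 0.400 and 0.288 FPKM in the CD49f-neg, 0.848, 1.16 and 1.00 in the CD49f-low and 2.68, 4.53 and 5.29 in the CD49f-high libraries. The gates did not overlap and stood in the order negative, low, high. Cdh2 had a log2 fold change of 1.93 (SE 0.19, adjusted p = 8.96e-05) for CD49f-high vs CD49f-neg and 1.33 (SE 0.19, adjusted p = 0.00121) for CD49f-high vs CD49f-low. For CD49f-low vs CD49f-neg it was 0.59 (SE 0.19, adjusted p = 0.0613), not called. That step was called with the replicate block (adjusted p = 0.0278), with a pseudocount of 0.1 (0.0110), in a fit on the 6 libraries (0.0141), and when CD49f-high replicate 1 (0.0116) or replicate 3 (0.0458) was left out.

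Summed over 10 Schwann cell markers, all found, the FPKM was 13.2 to 19.6 in the CD49f-neg, 57.5 to 72.8 in the CD49f-low and 61.3 to 237 in the CD49f-high libraries. Gap43 made up most of the CD49f-neg sum and averaged 11.7, 12.9 and 19.8 FPKM in the same order of gates. Sox10 was the largest contributor in CD49f-low, averaging 23.1 FPKM there, 0.0821 in CD49f-neg and 28.3 in CD49f-high. Gfra3 averaged 0.158 FPKM in CD49f-low and 23.0 in CD49f-high. Of 9 markers tested, 5 were higher in CD49f-high vs CD49f-low (5.93% of all rows) and 4, Gap43, Sox10 and Erbb3 among them, were not called. Foxd3, a transcription factor of neural crest and its early glial derivatives whose row also covers a predicted gene, had at most 0.0789 FPKM in the CD49f-neg, 4.79, 6.82 and 4.91 in the CD49f-low and 7.68, 30.4 and 39.1 in the CD49f-high libraries. Erbb3, the neuregulin receptor of Schwann cells that melanocytes carry too, had at most 0.184 FPKM in the CD49f-neg, 11.2, 12.3 and 14.8 in the CD49f-low and 7.73, 25.3 and 30.2 in the CD49f-high libraries. CD49f-high replicate 1 was the lowest of its gate for the Schwann cell sum, Foxd3, Erbb3, Cdh19 and Cdh2. The 11 mural cell markers, all found, summed to 30.6 to 43.4 FPKM in the CD49f-neg, 85.4 to 158 in the CD49f-low and 752 to 1394 in the CD49f-high libraries, and there replicate 1 was the highest of the high gate. The part of either cell type in the levels of Cdh19 and Cdh2 was not tested.

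Cdh5 (chromosome 8, 104101625 to 104144502, plus strand) had 0.189, 0 and 0.0460 FPKM in the CD49f-neg, 0.702, 0.218 and 0.603 in the CD49f-low and 3.995, 4.36 and 7.56 in the CD49f-high libraries. Every CD49f-high library stood above every other, while the low and negative gates came close to each other. Cdh5 reached 1 FPKM only in the CD49f-high libraries, so it passed the filter through that gate alone. Its high level there is thus tied to the filter, and its p-values for that gate only describe the values. The log2 fold change was 2.51 (SE 0.22, adjusted p = 4.30e-05) for CD49f-high vs CD49f-neg and 2.04 (SE 0.22, adjusted p = 0.000256) for CD49f-high vs CD49f-low. For CD49f-low vs CD49f-neg it was 0.47 (SE 0.22, adjusted p = 0.163), not called, and with a pseudocount of 0.1 its adjusted p was 0.0372. The 12 blood endothelial markers summed to 7.84 to 7.96, 12.4 to 14.4 and 21.6 to 38.6 FPKM in CD49f-neg, CD49f-low and CD49f-high libraries, and the 5 lymphatic markers to 0.124 to 0.478, 1.52 to 2.89 and 15.9 to 33.9. Of the blood endothelial list 8 genes were tested. In CD49f-high vs CD49f-neg 4 rose and 1 fell, where 13.9% of all rows rose and 8.27% fell. In CD49f-high vs CD49f-low 1 was higher (Esam), 1 was lower (Kdr) and 6 were not called, where 5.93% of all rows were higher and 10.5% lower. Esam, an endothelial junction protein also made by mural cells, made up much of the high-gate sum with 17.3, 9.36 and 16.4 FPKM. Erg, an endothelial transcription factor, fell in CD49f-high vs CD49f-neg (log2 fold change -1.31, adjusted p = 0.000996) and in CD49f-low vs CD49f-neg (-1.05, adjusted p = 0.00637). Pecam1, an adhesion protein of all endothelium, had 1.16, 0.574 and 1.13 FPKM in CD49f-high. Lyve1, a hyaluronan receptor of lymphatic endothelium, had at most 0.0915 FPKM in the CD49f-neg, 0.773, 0.296 and 0.888 in the CD49f-low and 8.10, 3.19 and 10.9 in the CD49f-high libraries. Prox1, the defining transcription factor of lymphatic endothelium, overlapped between the positive gates, with 0.943, 0.699 and 1.73 FPKM in CD49f-high and 1.06, 0.830 and 0.740 in CD49f-low. Emcn, a sialomucin of venous and capillary endothelium, stayed at or under 0.279 FPKM in all libraries, and Kdr, a VEGF receptor, was highest in CD49f-low (3.06, 3.71 and 4.08 FPKM). The part of endothelial cells in the level of Cdh5 was not tested.

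**Figure D4:**
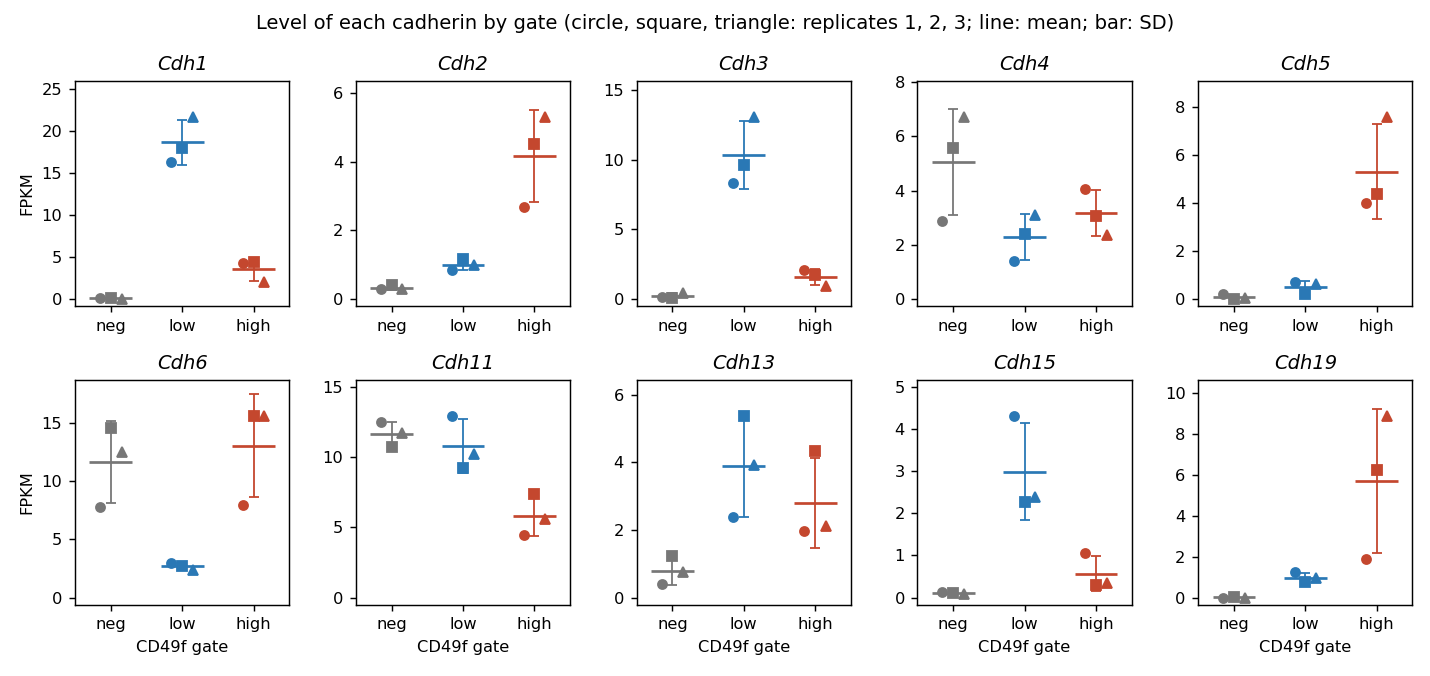
FPKM of each cadherin by CD49f gate, with a panel and linear axis per gene. Symbols are replicates 1 to 3, the line is the mean and the bar the SD. Cdh1, Cdh3 and Cdh15 are highest in the low gate, Cdh2, Cdh5 and Cdh19 in the high gate, and Cdh6 is lowest in the low gate.

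Cdh6, Cdh11 and Cdh4 led the cadherin FPKM of the negative gate but were not particular to it. Cdh6 overlapped between the negative and high gates, Cdh11 between the negative and low gates, and Cdh4 between all gates. Cadherin-11 is the mesenchymal cadherin of fibroblasts and osteoblasts, K-cadherin is known from kidney and neural crest, and R-cadherin from retina, brain and kidney. Cdh6 (chromosome 15, 13034200 to 13173639, minus strand) had 7.75, 14.6 and 12.5 FPKM in the CD49f-neg, 2.94, 2.74 and 2.36 in the CD49f-low and 7.92, 15.6 and 15.6 in the CD49f-high libraries. The low gate stood below all other libraries, and the negative and high gates overlapped, with replicate 1 the lowest in each. Cdh6 fell by 1.74 on the log2 scale in CD49f-low vs CD49f-neg (SE 0.27, adjusted p = 0.00266) and was higher by 1.88 in CD49f-high vs CD49f-low (SE 0.27, adjusted p = 0.00143). Between CD49f-high and CD49f-neg its log2 fold change was 0.14 (SE 0.27, adjusted p = 0.781), and the sign turned when CD49f-neg replicate 1, CD49f-high replicate 2 or CD49f-high replicate 3 was left out (-0.11, -0.01 and -0.01). By mean FPKM, Cdh6 and Cdh4 were the members whose lowest gate was CD49f-low, though no difference of Cdh4 was called.

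Cdh11 (chromosome 8, 102632995 to 102785111, minus strand, in a row with 1 unnamed annotated locus) had 12.5, 10.7 and 11.7 FPKM in the CD49f-neg, 12.9, 9.19 and 10.2 in the CD49f-low and 4.47, 7.34 and 5.60 in the CD49f-high libraries. The negative and low gates overlapped, and all CD49f-high libraries were below both. Cdh11 fell by 0.91 on the log2 scale in CD49f-high vs CD49f-neg (SE 0.17, adjusted p = 0.00409) and by 0.80 in CD49f-high vs CD49f-low (SE 0.17, adjusted p = 0.0112). Its log2 fold change in CD49f-low vs CD49f-neg was -0.11 (SE 0.17, adjusted p = 0.673). Beside it, the fibroblast collagen gene Col1a2 had a ratio of mean FPKM of 0.380 for CD49f-low to CD49f-neg and 0.344 for CD49f-high to CD49f-neg, and Pdgfra, a receptor of dermal fibroblasts, ratios of 0.875 and 0.356. The ratios of Cdh11 were 0.926 and 0.499. Of the 9 fibroblast markers, 8 fell in CD49f-low vs CD49f-neg (2.62% of all rows), where Cdh11 was not called. All 9 fell in CD49f-high vs CD49f-neg (8.27% of all rows). In CD49f-high vs CD49f-low 4 were lower (10.5% of all rows), and 5, Col1a2 among them, were not called. The part of fibroblasts in the level of Cdh11 was not tested.

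Cdh4 (chromosome 2, 179442431 to 179899373, plus strand, in a row with 1 unnamed annotated locus) had 2.88, 5.57 and 6.70 FPKM in the CD49f-neg, 1.39, 2.40 and 3.10 in the CD49f-low and 4.07, 3.07 and 2.36 in the CD49f-high libraries. All gates overlapped. None of its differences was called, with log2 fold changes of -0.85 (SE 0.29, adjusted p = 0.0719) for CD49f-low vs CD49f-neg, -0.50 (SE 0.29, adjusted p = 0.256) for CD49f-high vs CD49f-neg and 0.35 (SE 0.29, adjusted p = 0.432) for CD49f-high vs CD49f-low. The first of these was called after median-of-ratios scaling (adjusted p = 0.0404), after quantile normalization (0.0445) and without CD49f-neg replicate 1 (0.0193).

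Cdh13 was higher in both positive gates. T-cadherin is a receptor for adiponectin and low-density lipoprotein, known from endothelium, smooth muscle and heart. Cdh13 (chromosome 8, 118283733 to 119324921, plus strand) had 0.398, 1.24 and 0.750 FPKM in the CD49f-neg, 2.39, 5.38 and 3.91 in the CD49f-low and 1.96, 4.33 and 2.11 in the CD49f-high libraries. Both positive gates stood above the negative one and overlapped each other, and replicate 2 was the highest library of every gate. The log2 fold change was 1.43 (SE 0.29, adjusted p = 0.0118) for CD49f-low vs CD49f-neg, 1.06 (SE 0.29, adjusted p = 0.0291) for CD49f-high vs CD49f-neg and -0.37 (SE 0.29, adjusted p = 0.425) for CD49f-high vs CD49f-low. The second was lost without the filter (adjusted p = 0.0794) and without CD49f-neg replicate 1 (0.0822), CD49f-neg replicate 3 (0.0804) or CD49f-high replicate 2 (0.0890). With Cdh1, Cdh3, Cdh5, Cdh11 and Cdh15, Cdh13 brings the members on chromosome 8 to 6 of 10.

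The order of members within a gate was close in places. In CD49f-neg cells Cdh6 and Cdh11 (11.6 ± 3.51 and 11.6 ± 0.888 FPKM) did not differ beyond their spread, and Cdh4 followed at 5.05 ± 1.97. In CD49f-low cells Cdh1 (18.7 ± 2.71 FPKM) stood above Cdh11 (10.8 ± 1.92) and Cdh3 (10.3 ± 2.46), which did not differ beyond their spread. Next came Cdh13 at 3.89 ± 1.496, Cdh15 at 2.99 ± 1.15, Cdh6 at 2.68 ± 0.296 and Cdh4 at 2.29 ± 0.858, each within the spread of its neighbour. In CD49f-high cells Cdh6 stood at 13.0 ± 4.42 FPKM, and Cdh11, Cdh19, Cdh5 and Cdh2 followed within their spread of each other at 5.80 ± 1.45, 5.68 ± 3.52, 5.30 ± 1.96 and 4.17 ± 1.35. Cdh1 at 3.54 ± 1.37, Cdh4 at 3.17 ± 0.860 and Cdh13 at 2.80 ± 1.32 came next, also within their spread (SD, n = 3 throughout).

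The genes whose log2(FPKM + 1) ran most like each member over the 9 libraries were listed by Pearson's r among 2715 abundant named genes. The 9 libraries share gates and replicate numbers, so these r describe likeness only. Cdh1 was most like Myo10 and Mgll (r = 0.986 each), Alpl (0.981), Prdm1 (0.978) and Scube3 (0.975). Cdh3 was most like Alpl (0.990), Corin and Dct (0.989 each), Dll1 (0.988) and Kit (0.987), of which Alpl, Corin, Dct and Kit were themselves on the dermal papilla or melanocyte lists. Cdh15 was most like Jak2 (0.981) and Nono (0.979), and no myogenic marker came among its first 5, which were limited to genes with a mean of at least 10 FPKM in some gate. Cdh19 was most like Cadm4 (0.997), an adhesion molecule of Schwann cells, which had 6.57, 37.2 and 45.3 FPKM in CD49f-high and 3.97, 2.03 and 3.00 in CD49f-low. Cdh2 was most like Mmp15 and Col18a1 (0.992 each) and shared Scn7a (0.987) and Aatk (0.985) with Cdh19 (0.982 and 0.980). Cdh5 was most like Tnfrsf21 (0.987), Angpt2, Lamc1 and Esam (0.980 each) and Nr2f2 (0.979), of which Esam was on the endothelial list. Cdh11 was most like Sh3bp4 (0.978) and Cdh13 like Gatad2a (0.987). For Cdh4 and Cdh6 the most similar genes, Prrx1 and Nfib, reached 0.919 each.

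The cytoplasmic partners of cadherins were described from a list of 28 adherens junction genes, 24 of which passed the filter. In CD49f-low vs CD49f-neg 6 of them rose, 1 fell and 17 were not called, in CD49f-high vs CD49f-neg 9 rose, 1 fell and 14 were not called, and in CD49f-high vs CD49f-low 4 were higher, 4 lower and 16 not called. Of all rows tested, 15.4%, 22.1% and 16.4% were called in these comparisons. By direction, 12.8%, 13.9% and 5.93% of all rows were higher, and 2.62%, 8.27% and 10.5% lower. The partners' median log2 fold changes were 0.27, 0.21 and 0.03, and those of all rows were 0.21, 0.07 and -0.15. In CD49f-low vs CD49f-neg the split turned to 1 higher and 2 lower after median-of-ratios scaling (median -0.04) and to 3 higher and 2 lower after quantile normalization. Of the 8 catenins tested, 5 were higher and 1 lower in CD49f-low vs CD49f-neg and 6 were higher in CD49f-high vs CD49f-neg. The 1 lower was Arvcf (log2 fold change -0.44, adjusted p = 0.0320), whose call was lost without the filter (0.0821) and in 5 of the fits that left out 1 library (adjusted p 0.0566 to 0.0960: without CD49f-neg replicate 2 or 3, or any one CD49f-low library). Arvcf was among the higher in CD49f-high vs CD49f-neg (0.46, adjusted p = 0.0174). That call was lost after median-of-ratios scaling (0.0797) or quantile normalization (0.0771), and without CD49f-neg replicate 3 (0.0560) or CD49f-high replicate 3 (0.0627). Jup, which encodes plakoglobin, had 2.27, 2.65 and 2.56 FPKM in the CD49f-neg, 5.77, 5.97 and 6.12 in the CD49f-low and 7.42, 6.62 and 6.26 in the CD49f-high libraries. It rose by a log2 fold change of 1.00 (SE 0.10, adjusted p = 0.000242) in CD49f-low vs CD49f-neg and 1.15 (SE 0.10, adjusted p = 5.27e-05) in CD49f-high vs CD49f-neg. Ctnnb1, which encodes β-catenin, averaged 89.6 ± 3.59 FPKM in CD49f-low and 55.3 ± 6.95 in CD49f-neg (log2 fold change 0.69, adjusted p = 0.00513), but this call was lost after median-of-ratios scaling (0.36, adjusted p = 0.154). In CD49f-high vs CD49f-low Ctnnb1 was lower (-0.49, adjusted p = 0.0218). That call was lost without the filter (0.0604), after median-of-ratios scaling (0.255) or quantile normalization (0.1165), and without CD49f-high replicate 2 (0.0673) or any one CD49f-low library (0.0516 to 0.0852). Ctnna1, for αE-catenin, averaged 67.7 ± 2.48 FPKM in CD49f-high and 37.3 ± 2.39 in CD49f-neg (log2 fold change 0.84, adjusted p = 0.000219). In CD49f-low vs CD49f-neg its log2 fold change was 0.56 (adjusted p = 0.00452), and that call was lost after median-of-ratios scaling (0.23, adjusted p = 0.203). Ctnnd1, for p120 catenin, shared its row with Tmx2 and is uncertain, with log2 fold changes of 0.58 (adjusted p = 0.00724, lost after median-of-ratios scaling at 0.125 and after quantile normalization at 0.0587) in CD49f-low vs CD49f-neg and 0.55 (adjusted p = 0.00517) in CD49f-high vs CD49f-neg.

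Ctnnd2 and Ctnna3, catenins known from neurons and from heart and testis, were highest in the high gate. Ctnnd2 had at most 0.0737 FPKM in the CD49f-neg, 0.405, 0.369 and 1.17 in the CD49f-low and 18.5, 9.76 and 10.9 in the CD49f-high libraries, a log2 fold change of 3.69 (SE 0.24, adjusted p = 9.85e-06) for CD49f-high vs CD49f-neg. Ctnna3 had 3.72, 2.71 and 2.97 FPKM in CD49f-high and at most 0.471 in CD49f-low, with a log2 fold change of 1.71 (SE 0.14, adjusted p = 7.24e-05) between them. Ctnna3 reached 1 FPKM only in the CD49f-high libraries, and Ctnnd2 only there and in CD49f-low replicate 3. Without the high gate neither would have passed the filter, so their p-values for that gate only describe the values. Replicate 1 was the highest CD49f-high library for Ctnnd2 and Ctnna3, whereas it was the lowest for Cdh19 and Cdh2. Ajuba, a LIM protein that binds α-catenin, averaged 25.6 ± 4.52 FPKM in CD49f-high and 7.97 ± 0.520 in CD49f-low (log2 fold change 1.56, adjusted p = 0.000230). Arvcf, a relative of p120 catenin, averaged 6.92 ± 0.601 FPKM in CD49f-high and 3.24 ± 0.410 in CD49f-low (log2 fold change 0.90, adjusted p = 0.000674).

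Of 13 other Cdh genes, Cdh22 and Cdh24 passed the filter. Cdh22, a type II cadherin known from brain, had 0.357, 0.538 and 0.810 FPKM in the CD49f-neg, 1.28, 2.15 and 1.93 in the CD49f-low and 0.231, 0.264 and 0.0687 in the CD49f-high libraries. It reached 1 FPKM only in the CD49f-low libraries and so passed the filter through that gate alone. Its high level there is thus tied to how it was picked, and its p-values only describe the values. The low gate stood above both others. Its log2 fold change was 0.83 (SE 0.17, adjusted p = 0.0101, lost after quantile normalization at 0.0784) in CD49f-low vs CD49f-neg and -1.22 (SE 0.17, adjusted p = 0.000979) in CD49f-high vs CD49f-low. Cdh24 lay between 1.58 and 3.39 FPKM in all libraries and was not called in any of the 3 comparisons.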

How the data were processed

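RNA sequencing of 9 libraries was used, 3 from each CD49f gate, grouped by their titles. The authors deposited 1 table of FPKM with 1 column per library, and per the file headers each row carries an identifier, gene symbols and coordinates. The submitters' processing notes name FastQC, TopHat2, StringTie and the build GRCm38; versions, order and filters are not given in the sources used here, nor is strand. Low FPKM of single-exon genes pile up at steps, which gave relative but not absolute depth, so no interval or detection floor is given.

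From the FPKM, log2(FPKM + 1) was taken for rows that reached 1 FPKM in 3 or more libraries. The gates were set against each other in limma 3.58.1 (R 4.3.3; all 9 libraries, empirical Bayes with a trend, Benjamini-Hochberg over 20523 rows, called under 0.05), tested on simulated data. The fit was repeated with the replicate number as a block, without the trend, on the 6 libraries compared, with each library left out, after quantile normalization or median-of-ratios scaling, with a pseudocount of 0.1, without a filter and with a filter at 5 FPKM. Same-numbered libraries deviated together (correlations 0.252 to 0.520 over 9 pairs, against -0.453 to 0.118 for other pairs), so the values, though no label, pair these numbers. Deviations were taken from the mean of each gate, so positive values for same-numbered pairs push the other pairs towards negative values. The ranges are thus not independent of each other.

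The members and lists were chosen with earlier results of these data known. Named genes were all members; Ctnnb1, Ctnna1, Ctnnd1 and Jup; up to 4 called partners per comparison with the smallest adjusted p; other Cdh genes past the filter; the first 2 markers of each list (of those that remain in the Schwann cell list, where the results of 2 genes are not reported here); and, per member, the 5 genes most like it with 1 symbol and averaging 10 FPKM or more in some gate. Myf5, Megf10, Emcn, Esam, Erg, Gpr143, Wif1, Rspo3, Crabp1, Trps1, Cadm4's levels and the replicate order were added after their values were seen. The same holds for Myog, Ttn, Acta1, Ckm, Chrna1, Sox10, Gap43 and Gfra3. Coding sequence came from GENCODE M21. Python 3.11.15 was used with numpy 2.4.6, pandas 2.3.3 and matplotlib 3.10.9.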

Additional observations from a re-analysis of the deposited data

How the results depend on the processing

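Over 492 recomputed fold changes of the members, 468 kept their direction and their side of the threshold, 14 became called, 7 lost the call and 3 changed sign. The sign changes were those of Cdh6 in CD49f-high vs CD49f-neg, at -0.108 without CD49f-neg replicate 1 and, in the high gate, -0.014 without replicate 2 and -0.012 without replicate 3 (range with 1 library left out -0.108 to 0.434). Among other named genes, none of them called there, Ajuba turned to -0.084 in CD49f-low vs CD49f-neg after median-of-ratios scaling. Ctnnd1 in CD49f-high vs CD49f-low turned to 0.164 with median-of-ratios scaling, to 0.058 with quantile values, and lay between -0.069 and 0.013 with 1 library left out. Cdh24 in the same comparison lay between -0.078 and 0.129 with 1 library left out. Called cadherins in CD49f-low vs CD49f-neg numbered 8 with a pseudocount of 0.1, and with the stricter filter, which left 4 members to test, 3, 3 and 4 were called in CD49f-low vs CD49f-neg, CD49f-high vs CD49f-neg and CD49f-high vs CD49f-low. Leaving out 1 library gave 5 to 7, 6 to 7 and 7 to 8. Called partners in CD49f-low vs CD49f-neg fell to 3 after median-of-ratios scaling (1 higher and 2 lower), and the leave-one-out ranges were 5 to 8, 8 to 10 and 7 to 9. Rows called in CD49f-low vs CD49f-neg numbered 3160, but 2044 after quantile normalization, 1358 with the stricter filter, 5806 with the replicate block and 1614 to 3764 with 1 library left out (1614 without CD49f-neg replicate 3, and 1726 and 1681 without replicates 2 and 3 of CD49f-low). In CD49f-high vs CD49f-neg they numbered 4541, but 1911 with the stricter filter and 3232 to 4653 with 1 library left out. In CD49f-high vs CD49f-low they numbered 3367, but 1323 with the stricter filter, 5309 with the replicate block and 2201 (without CD49f-low replicate 3) to 3585 with 1 library left out. The stricter filter tested 7340 rows; the cause of the other moves was not tested. With the replicate block Cdh2 in CD49f-low vs CD49f-neg, Cdh15 and Cdh24 in CD49f-high vs CD49f-neg and Ctnna1 in CD49f-high vs CD49f-low became called (Cdh24 adjusted p = 0.0382, Ctnna1 0.0483). It changed no other call of the members, Ctnnb1, Ctnna1, Ctnnd1, Jup, Ctnnd2, Ctnna3, Ajuba, Arvcf, Cdh22 or Cdh24. The calls of the cell type markers were not examined in the repeated fits. The absolute depth is unknown, so the counting error of low FPKM could not be given.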
